A study of Homo sapiens with 8 samples.

Results

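Homologous recombination copies an intact sister chromatid to mend a broken one, and the Fanconi anemia pathway unhooks DNA strands that have been crosslinked to each other. The 36 genes described here encode proteins of both pathways and of the checkpoint that acts with them. They were chosen by gene symbol, and all 36 were found among the 19124 genes listed in every library. They comprise 5 genes of the BRCA complex, 7 genes of strand invasion, 3 genes of the BLM dissolvasome, 4 genes of break end resection, 9 genes of the Fanconi core complex with UBE2T, the 2 genes of the FANCD2-FANCI complex and 6 checkpoint genes. Values come from RNA sequencing and are given in RPKM, as deposited, but they are not reads scaled to the length of a whole transcript. RPKM times transcript length, summed over the genes, was 17.6 to 22.4 times the most that such a unit allows, and the median was 4.004 to 5.62 RPKM for genes of 1 exon against 173 to 387 RPKM for genes of over 20 exons. How reads were counted is not stated, so a level is read here only against the same gene in another library and the level of one gene is not set against that of another. HCT116 and HT29, both established human colorectal cancer lines, were grown in RPMI and transfected with 15 nM of a negative control siRNA (NC) or of an siRNA against RPL9, RPL17 or RPL27, which encode proteins of the large ribosomal subunit, with Lipofectamine 2000 as carrier. RNA was taken 48 h later. There was 1 library for each line and siRNA, 8 in all, so the lines served as each other's replicate, and no source used here says how many cultures a library came from. The siRNA sequences are not given in the sources used here. Below, values under the RPL siRNAs are always given in the order RPL9, RPL17, RPL27. A difference is on the log2(RPKM + 1) scale, which understates changes of low genes such as FANCF and RMI2.

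As background, a broken end is first trimmed by the MRE11-RAD50-NBN complex with RBBP8 (CtIP), and BRCA1-BARD1, PALB2 and BRCA2 then prepare the exposed strand for exchange. Proteins such as RAD51C, XRCC2 and XRCC3 help to form the filament on that strand, RAD54 proteins help it invade the sister chromatid, and BLM with its RMI partners takes the joined molecules apart. At a crosslink, FANCM and the Fanconi core complex, whose ubiquitin ligase FANCL works with the conjugating enzyme UBE2T, attach ubiquitin to FANCD2 and FANCI. ATM and ATR are the kinases that sense breaks and stalled forks, and CHEK2 and CHEK1 carry their signals to the cell cycle. Many of these genes are known to be transcribed most in S and G2 phase, when a sister chromatid is present.

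The promoters of 5 of the 10 members that were below NC in every RPL siRNA library are shown first, so that the letters of their windows can be read beside their levels; the 5 were chosen after their values were seen. Each window covers the 200 bases just before the first listed transcription start, 5′ to 3′ on the gene's strand, from RefSeq on GRCh38.p14, which is not the hg19 build of the authors' files. Capitals mark the motifs searched on both strands: the CCAAT box (CCAAT), a cell-cycle homology element (TTTGAA or TTCGAA) and an E2F element (TTTGGCGC, TTTCGCGC, TTTCCCGC or TTTGCCGC), with no overlap between them in these windows. RAD50, which was above NC in 5 of the 6 RPL siRNA libraries, is given beside them.
UBE2T (chr1:202341937-202342136, minus strand): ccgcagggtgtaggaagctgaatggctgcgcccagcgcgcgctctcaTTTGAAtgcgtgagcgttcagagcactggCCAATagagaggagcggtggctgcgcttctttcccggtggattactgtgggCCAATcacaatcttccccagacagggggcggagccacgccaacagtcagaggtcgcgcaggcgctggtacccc
FANCG (chr9:35079943-35080142, minus strand): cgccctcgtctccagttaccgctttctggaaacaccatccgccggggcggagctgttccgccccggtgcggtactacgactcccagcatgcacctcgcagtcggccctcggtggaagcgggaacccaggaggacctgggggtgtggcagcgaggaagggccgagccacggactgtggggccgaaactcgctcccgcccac
BLM (chr15:90717146-90717345, plus strand): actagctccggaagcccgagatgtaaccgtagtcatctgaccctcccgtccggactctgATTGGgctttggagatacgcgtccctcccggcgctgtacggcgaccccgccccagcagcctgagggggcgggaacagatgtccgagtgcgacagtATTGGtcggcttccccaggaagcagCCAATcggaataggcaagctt
FANCA (chr16:89816648-89816847, minus strand): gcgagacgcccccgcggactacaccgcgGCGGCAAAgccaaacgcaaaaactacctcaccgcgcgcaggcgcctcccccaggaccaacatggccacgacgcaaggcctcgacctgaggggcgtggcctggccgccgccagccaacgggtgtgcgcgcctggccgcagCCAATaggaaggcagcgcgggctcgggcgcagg
CHEK2 (chr22:28741821-28742020, minus strand): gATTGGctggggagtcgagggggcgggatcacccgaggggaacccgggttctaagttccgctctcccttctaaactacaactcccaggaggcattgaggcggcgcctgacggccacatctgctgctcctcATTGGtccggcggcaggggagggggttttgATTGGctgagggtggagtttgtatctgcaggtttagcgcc
RAD50 (chr5:132556777-132556976, plus strand): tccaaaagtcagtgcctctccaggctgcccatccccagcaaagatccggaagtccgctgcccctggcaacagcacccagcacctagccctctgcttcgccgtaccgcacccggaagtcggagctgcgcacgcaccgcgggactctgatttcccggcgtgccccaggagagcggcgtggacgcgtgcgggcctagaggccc

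The UBE2T window held a cell-cycle homology element and a pair of CCAAT boxes, BLM and CHEK2 held 3 CCAAT boxes each, FANCA held 1 CCAAT box and 1 E2F element, and no such letters were found in the FANCG and RAD50 windows. In the 250 bases before the start, 32 of the 36 members had an entry. A CCAAT box was found in 16 of the 32 (50%, against 34.6% of the promoters of 13960 listed genes), a cell-cycle homology element in 4 (12.5% against 11.6%) and an E2F element in 2 (6.25% against 3.64%). Among the members lower than NC in all 6 RPL siRNA libraries (below), 8 had an entry and 5 of these held a CCAAT box, as did 11 of the other 24. RAD50 does not stand for all members above NC in 5 of the 6 libraries: RMI1, FANCF and ATM held a CCAAT box and ATR held none. A match describes letters in a window and is not evidence of binding.

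Each targeted mRNA stood below NC in the library of its siRNA, at 26.7% to 38.5% of NC in HCT116 and at 13.7% to 18.7% in HT29. In HT29 the 2 mRNAs that a library did not target were at 29.3% to 65.4% of NC too, and in HCT116 RPL27 was at 61.7% of NC under RPL17 siRNA, while the other mRNAs not targeted there were at 105% to 121%. CDKN1A, which encodes the cell cycle inhibitor p21, stood at 225 RPKM with NC and 958 to 1195 RPKM with the RPL siRNAs in HCT116, and at 198 against 761 to 864 RPKM in HT29. Epithelial EPCAM, KRT8, KRT18 and KRT19 were high in all 8 libraries (2248 RPKM or more). Of the other colorectal markers, CDX1 was at 0 in HCT116 and at most 0.0819 RPKM in HT29, and VIL1 reached no more than 2.89 RPKM in HCT116 against 358 to 475 RPKM in HT29. KRT20, LGALS4 and CEACAM5 were at most 16.3 RPKM in HCT116, against at least 403, 1859 and 7.09 RPKM in HT29. CDX2 was at 8.04 to 18.8 RPKM in the 8 libraries, and CDH1 at 268 RPKM or more. Among markers of other cell types, leukocyte PTPRC, fibroblast DCN and endothelial CDH5 were at most 1.87 RPKM. LYZ reached 3001 RPKM in HT29, and COL1A1 437 RPKM. With RPL27 siRNA in HT29, CD3E was at 8.03 RPKM and VWF at 6.58 RPKM. KDR reached 5.22 RPKM with RPL17 siRNA in HT29. The remaining markers of these types were at most 2.65 RPKM. The HT29 NC library stood apart. The rank correlation across 14180 genes between transcript length and a library's deviation from the mean of all 8 was -0.54 there and between 0.12 and 0.23 in the other 7, so long transcripts were low in that library. Its median for genes of over 20 exons was 173 RPKM, against 342 to 387 RPKM in the other 7. The part of exon number apart from length was not tested. Every HT29 comparison with NC rests on the HT29 NC library, those of the targeted mRNAs and CDKN1A above included. So does every count of genes on 1 side of NC in all 6 RPL siRNA libraries. For the 3 RPL siRNAs together the members' median against NC is given with and without it.

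No member passed the test of the 3 RPL siRNAs together against NC (limma on all 8 libraries with line as a term, adjusted p over the 14281 genes whose mean RPKM was 1 or more, threshold 0.05), a filter that all 36 members pass. The share of all genes called was 0.168%. At an unadjusted p under 0.05, 9 members were lower (9.7% of all genes were) and 2 were higher (14.9% of all genes). The members' median difference was -0.17, against 0.10 for all genes tested. These are bulk libraries, in which fewer cells expressing a gene and less of its RNA per cell cannot be told apart.

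In HCT116 most members were lower: 31 of 36 with RPL9 siRNA (48.9% of all genes were lower), 27 with RPL17 siRNA (50.3%) and 33 with RPL27 siRNA (48.1%), with median differences of -0.60, -0.36 and -0.69. In HT29 the same counts were 12 (43.7%), 13 (41.8%) and 16 (42.3%), and the medians were 0.19, 0.31 and 0.07, beside 0.17, 0.20 and 0.19 for all genes. The libraries of a line share 1 NC library, so the 3 counts of a line are not separate evidence, and within a line there is no replicate and no test.

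**Figure D1:**
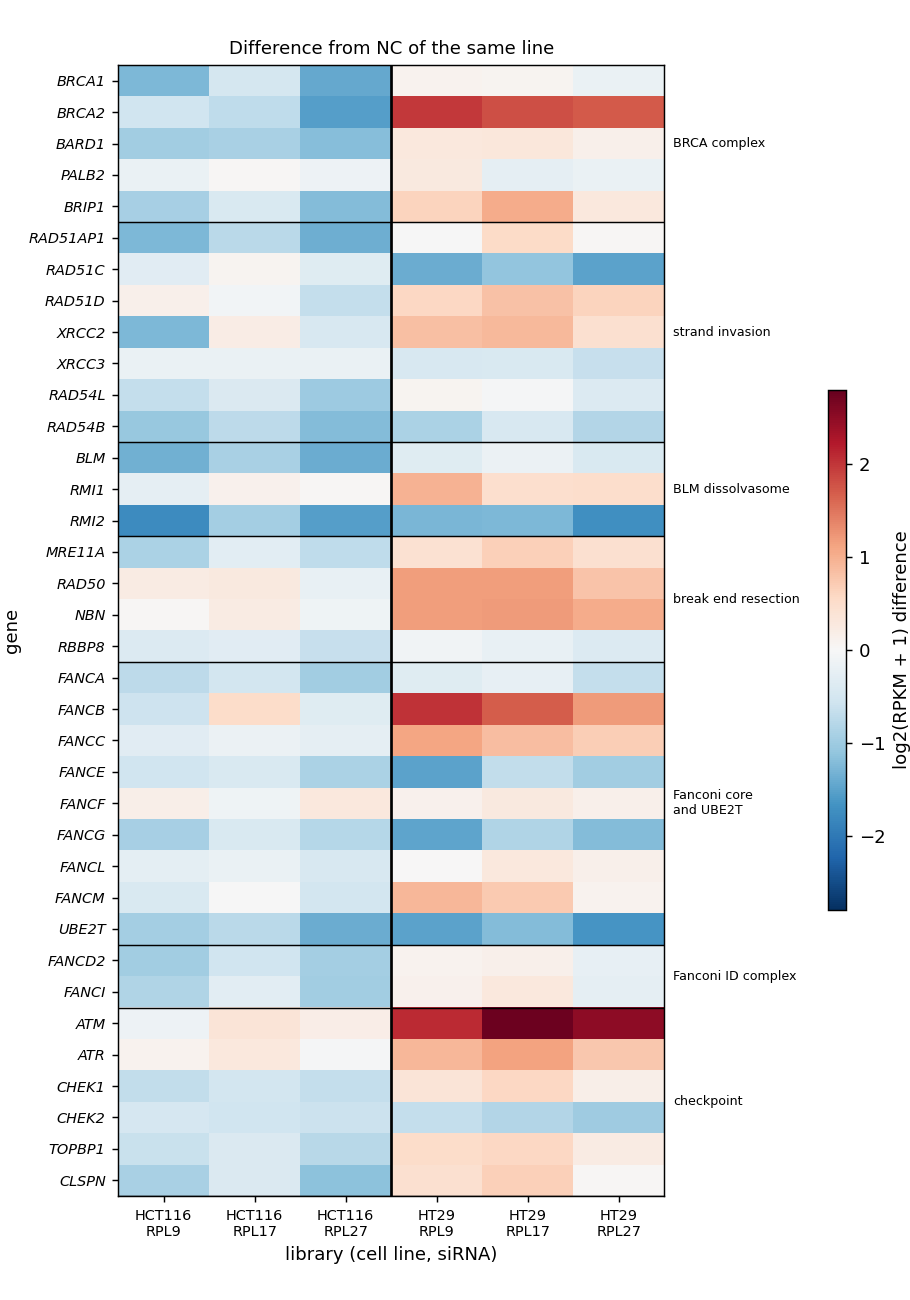
Difference from the NC library of the same line on the log2(RPKM + 1) scale for each of the 36 members (rows, grouped by role) in the 6 RPL siRNA libraries (columns; HCT116 left of the black line, HT29 right). Blue is lower than NC and red is higher: the HCT116 columns are mostly blue, and the HT29 columns are split between red rows led by ATM, BRCA2 and FANCB and blue rows led by UBE2T, RMI2 and RAD51C.

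By the rule used to choose genes for full values, 10 of the 36 members were lower than NC in all 6 RPL siRNA libraries (13% of all genes were) and none was higher in all 6 (18%). They were UBE2T, RMI2, FANCG, RAD54B, FANCE, BLM, CHEK2, FANCA, XRCC3 and RBBP8.

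**Figure D2:**
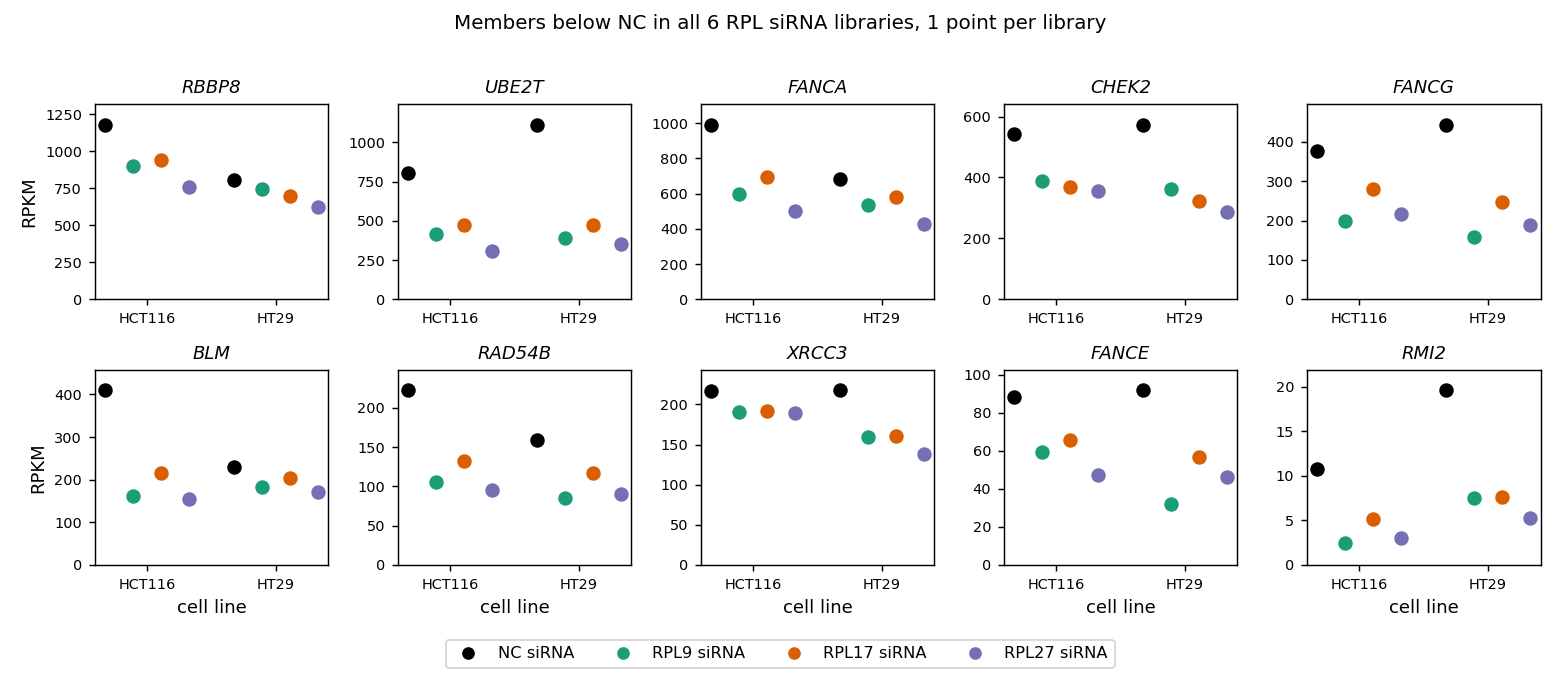
RPKM (linear axis from 0) of the 10 members that were lower than NC in all 6 RPL siRNA libraries; each point is 1 library, with NC in black at the left of each line's 4 points. In every panel and both lines the black point lies above the other 3, and RMI2, at 10.8 RPKM against 2.48 to 5.10 RPKM in HCT116, shows the widest gap relative to NC in that line.

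Of the 9 genes of the Fanconi core complex and its conjugating enzyme, UBE2T, FANCG, FANCE and FANCA were the ones below NC throughout. UBE2T, which hands ubiquitin to the ligase FANCL, stood at 806 RPKM with NC siRNA and at 414, 476 and 306 RPKM with the RPL siRNAs in HCT116, and at 1111 RPKM against 390.4, 476 and 354 RPKM in HT29. NC was the highest library in each line, and RPL27 siRNA the lowest. The fitted difference was -1.25 (SE 0.17, adjusted p = 0.0662), the smallest adjusted p among the members. FANCG, a scaffold subunit of the core complex, stood at 378 RPKM with NC siRNA and at 198, 280.0 and 216 RPKM with the RPL siRNAs in HCT116, and at 443 RPKM against 159, 247 and 189.9 RPKM in HT29. Here RPL9 siRNA gave the lowest value in both lines, and the difference from NC was -0.95 (SE 0.18, adjusted p = 0.0832). FANCE, the subunit that contacts FANCD2, stood at 88.2 RPKM with NC siRNA and at 59.2, 65.4 and 47.1 RPKM with the RPL siRNAs in HCT116, and at 91.6 RPKM against 31.9, 56.4 and 46.3 RPKM in HT29. Its difference was -0.84 (SE 0.26, adjusted p = 0.143), with the HT29 library of RPL9 siRNA lowest. FANCA, the subunit most often altered in Fanconi anemia, stood at 991 RPKM with NC siRNA and at 599, 695 and 501 RPKM with the RPL siRNAs in HCT116, and at 681 RPKM against 536, 579 and 428 RPKM in HT29. The difference was -0.58 (SE 0.15, adjusted p = 0.117), with RPL27 siRNA lowest in both lines.

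The rest of the core complex did not move in that way. FANCB, an X-linked scaffold subunit, stood at 33.6 RPKM with NC siRNA and at 22.1, 48.7 and 26.2 RPKM with the RPL siRNAs in HCT116, and at 8.16 RPKM against 36.5, 28.5 and 19.8 RPKM in HT29. HT29 NC was the lowest of the 8 libraries, and the mean differences were -0.13 in HCT116 and 1.64 in HT29. FANCC stood at 163 RPKM with NC siRNA and at 131, 146 and 137 RPKM with the RPL siRNAs in HCT116, and at 96.5 RPKM against 207, 176 and 156 RPKM in HT29. The same split was seen for this subunit, -0.24 in HCT116 against 0.88 in HT29. FANCM, the translocase that anchors the complex to DNA, had mean differences of -0.32 and 0.59, and FANCL, the ubiquitin ligase itself, of -0.30 and 0.15. FANCF, an adaptor subunit encoded by a single exon, was between 2.13 and 3.95 RPKM in all libraries. The RPL siRNA libraries stood at 88.2% to 131% of NC, and the log2(RPKM + 1) scale understates changes at such values.

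FANCD2 and FANCI, the pair that receives the ubiquitin, showed one pattern in each line. FANCD2 stood at 1741 RPKM with NC siRNA and at 879.6, 1189 and 900.3 RPKM with the RPL siRNAs in HCT116, and at 661 RPKM against 705, 732 and 562 RPKM in HT29. FANCI stood at 2241 RPKM with NC siRNA and at 1248, 1839 and 1140.2 RPKM with the RPL siRNAs in HCT116, and at 1671 RPKM against 1802, 2056 and 1407 RPKM in HT29. In HCT116 both stood at 50.5% to 82.1% of NC, and in HT29 at 84.2% to 123%, with NC inside the range of the RPL siRNA libraries. Neither passed the test over both lines, with differences of -0.41 (SE 0.23, adjusted p = 0.295) and -0.32 (SE 0.21, adjusted p = 0.356).

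Of the BLM dissolvasome, the helicase BLM and the accessory subunit RMI2 were below NC in all 6 libraries. BLM stood at 409 RPKM with NC siRNA and at 161, 216 and 155 RPKM with the RPL siRNAs in HCT116, and at 229 RPKM against 183, 205 and 170.2 RPKM in HT29. In HCT116 the RPL siRNA libraries were at 37.9% to 52.8% of NC and in HT29 at 74.2% to 89.2%, and the difference over both lines was -0.76 (SE 0.25, adjusted p = 0.154). RMI2 stood at 10.8 RPKM with NC siRNA and at 2.48, 5.10 and 3.03 RPKM with the RPL siRNAs in HCT116, and at 19.6 RPKM against 7.55, 7.61 and 5.27 RPKM in HT29. In each line the 1 NC library lay above the RPL siRNA libraries, which is the rule by which the 10 genes were taken. The mean differences of -1.42 and -1.41 were the closest to each other of these genes. RMI2 is a low gene, and its fitted difference of -1.42 (SE 0.30, adjusted p = 0.0918) did not pass. RMI1, the other RMI subunit, stood at 25.6 RPKM with NC siRNA and at 21.4, 27.8 and 26.0 RPKM with the RPL siRNAs in HCT116, and at 9.90 RPKM against 20.5, 14.1 and 14.2 RPKM in HT29. RMI1 was near NC in HCT116 and above it in HT29, with a difference of 0.30 (SE 0.31, adjusted p = 0.552).

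Among the genes of strand invasion, the chromatin motor RAD54B and XRCC3, which acts in filament assembly, were below NC throughout. RAD54B stood at 222 RPKM with NC siRNA and at 106, 133 and 95.8 RPKM with the RPL siRNAs in HCT116, and at 159.7 RPKM against 85.4, 116 and 90.2 RPKM in HT29. NC was highest in both lines, and the difference was -0.86 (SE 0.18, adjusted p = 0.0918). The transcript listed for RAD54B is a short one of 4 exons. XRCC3 stood at 217 RPKM with NC siRNA and at 191, 192 and 189 RPKM with the RPL siRNAs in HCT116, and at 217 RPKM against 159, 160.5 and 138 RPKM in HT29. All 3 siRNAs gave nearly equal values in HCT116, and the difference was -0.35 (SE 0.18, adjusted p = 0.265). RAD51AP1, which helps the filament capture the donor strand, stood at 350.3 RPKM with NC siRNA and at 146, 207 and 136 RPKM with the RPL siRNAs in HCT116, and at 145 RPKM against 145, 211 and 149 RPKM in HT29. It was at 38.9% to 59.2% of NC in HCT116 and at 99.8% to 145% in HT29, and its difference of -0.47 (SE 0.31, adjusted p = 0.376) did not pass.

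RAD51C, which acts in filament assembly with XRCC2 and with XRCC3, stood at 306 RPKM with NC siRNA and at 244, 323 and 242 RPKM with the RPL siRNAs in HCT116, and at 396 RPKM against 151, 183 and 140.0 RPKM in HT29. RAD51C was the reverse case, close to NC in HCT116 (-0.19) and far below it in HT29 (-1.33). The transcript listed for it has 2 exons and 567 bases, the shortest of the 36. RAD54L, the motor protein RAD54 that drives strand invasion, had mean differences of -0.70 in HCT116 and -0.11 in HT29. RAD51D and XRCC2, which form a complex with RAD51C, were at -0.20 and -0.50 in HCT116 and at 0.68 and 0.73 in HT29.

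No gene of the BRCA complex was on 1 side of NC in all 6 libraries. BRCA1, the ubiquitin ligase that licenses resection, stood at 570.4 RPKM with NC siRNA and at 237, 407 and 209 RPKM with the RPL siRNAs in HCT116, and at 296 RPKM against 317, 311 and 258 RPKM in HT29. In HCT116 it stood at 36.7% to 71.4% of NC, and in HT29 NC lay between the RPL27 and RPL17 siRNA libraries. The difference over both lines was -0.54 (SE 0.30, adjusted p = 0.302). BRCA2, which acts in filament assembly, stood at 158 RPKM with NC siRNA and at 107, 96.9 and 54.0 RPKM with the RPL siRNAs in HCT116, and at 44.2 RPKM against 177, 156 and 148 RPKM in HT29. In HCT116 NC was the highest library and in HT29 the lowest, so the fitted difference of 0.45 (SE 0.61, adjusted p = 0.658) averages values of opposite sign. BARD1, the partner of BRCA1, stood at 125 RPKM with NC siRNA and at 63.1, 66.5 and 54.4 RPKM with the RPL siRNAs in HCT116, and at 50.2 RPKM against 61.5, 63.0 and 55.9 RPKM in HT29. BARD1 was at 43.6% to 53.3% of NC in HCT116 and at 111% to 125% in HT29. BRIP1, the helicase also known as FANCJ, stood at 279.7 RPKM with NC siRNA and at 145, 208 and 119.2 RPKM with the RPL siRNAs in HCT116, and at 76.4 RPKM against 118, 159 and 94.7 RPKM in HT29. Its mean differences were -0.86 and 0.66. PALB2, which joins BRCA1 to BRCA2, was at -0.10 and -0.05.

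In break end resection, RBBP8 was the gene below NC in all 6 libraries. RBBP8 stood at 1178 RPKM with NC siRNA and at 899, 939 and 758 RPKM with the RPL siRNAs in HCT116, and at 806 RPKM against 748, 699 and 622 RPKM in HT29. The difference was -0.34 (SE 0.14, adjusted p = 0.208). The 3 subunits of the MRE11 complex did not share a pattern in HCT116. MRE11A, the nuclease, stood at 357 RPKM with NC siRNA and at 193, 291 and 219 RPKM with the RPL siRNAs in HCT116, and at 273 RPKM against 369.8, 437 and 375 RPKM in HT29. RAD50, the ATPase that bridges DNA ends, stood at 845 RPKM with NC siRNA and at 993, 1027 and 737 RPKM with the RPL siRNAs in HCT116, and at 441 RPKM against 995, 997 and 771 RPKM in HT29. NBN, the subunit that recruits ATM, stood at 671 RPKM with NC siRNA and at 689, 782 and 619 RPKM with the RPL siRNAs in HCT116, and at 306 RPKM against 684, 697 and 631 RPKM in HT29. In HCT116 MRE11A was below NC in all 3 libraries (-0.63), whereas RAD50 and NBN lay on both sides of it (0.10 and 0.05). In HT29 all 3 were above NC, by 0.52, 1.05 and 1.13.

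Of the checkpoint genes, CHEK2 was below NC throughout. CHEK2, the kinase downstream of ATM, stood at 541 RPKM with NC siRNA and at 388, 368 and 354 RPKM with the RPL siRNAs in HCT116, and at 573 RPKM against 363, 323 and 288 RPKM in HT29. Here RPL27 siRNA was lowest in both lines and the difference was -0.69 (SE 0.16, adjusted p = 0.0989). CHEK1, the kinase downstream of ATR, stood at 662 RPKM with NC siRNA and at 410.1, 464 and 415 RPKM with the RPL siRNAs in HCT116, and at 413 RPKM against 529, 618 and 462 RPKM in HT29. CHEK1 was below NC in HCT116 (-0.62) and above it in HT29 (0.37). ATM stood at 605 RPKM with NC siRNA and at 551, 774 and 692 RPKM with the RPL siRNAs in HCT116, and at 141 RPKM against 605, 949 and 801 RPKM in HT29. The HT29 NC library was far below the other 7, and ATM has the longest transcript of the members (13147 bases). ATR stood at 545 RPKM with NC siRNA and at 582, 669 and 533 RPKM with the RPL siRNAs in HCT116, and at 329 RPKM against 625, 721 and 553 RPKM in HT29. ATR was likewise lowest in the HT29 NC library, and neither kinase passed, with differences of 1.29 (SE 0.49, adjusted p = 0.187) and 0.53 (SE 0.22, adjusted p = 0.204). TOPBP1, the activator of ATR, stood at 975 RPKM with NC siRNA and at 637, 737 and 570.3 RPKM with the RPL siRNAs in HCT116, and at 472 RPKM against 672, 710.5 and 556 RPKM in HT29. CLSPN, the adaptor that brings CHEK1 to ATR, stood at 720.3 RPKM with NC siRNA and at 383, 539.8 and 326 RPKM with the RPL siRNAs in HCT116, and at 227 RPKM against 310.0, 363 and 232 RPKM in HT29. Both were below NC in HCT116 (-0.60 and -0.82) and above it in HT29 (0.45 and 0.38).

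The HT29 differences followed transcript length. Across the 36 members the rank correlation between length and the mean difference from NC was 0.56 in HT29 (0.53 over 14180 genes) and 0.11 in HCT116 (-0.06 over those genes). These are descriptions over genes, all measured against 1 NC library a line. UBE2T, RAD51C and RMI2, with the shortest transcripts of the 36, were at the low end in HT29, and ATM and BRCA2, with the longest, at the high end.

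**Figure D3:**
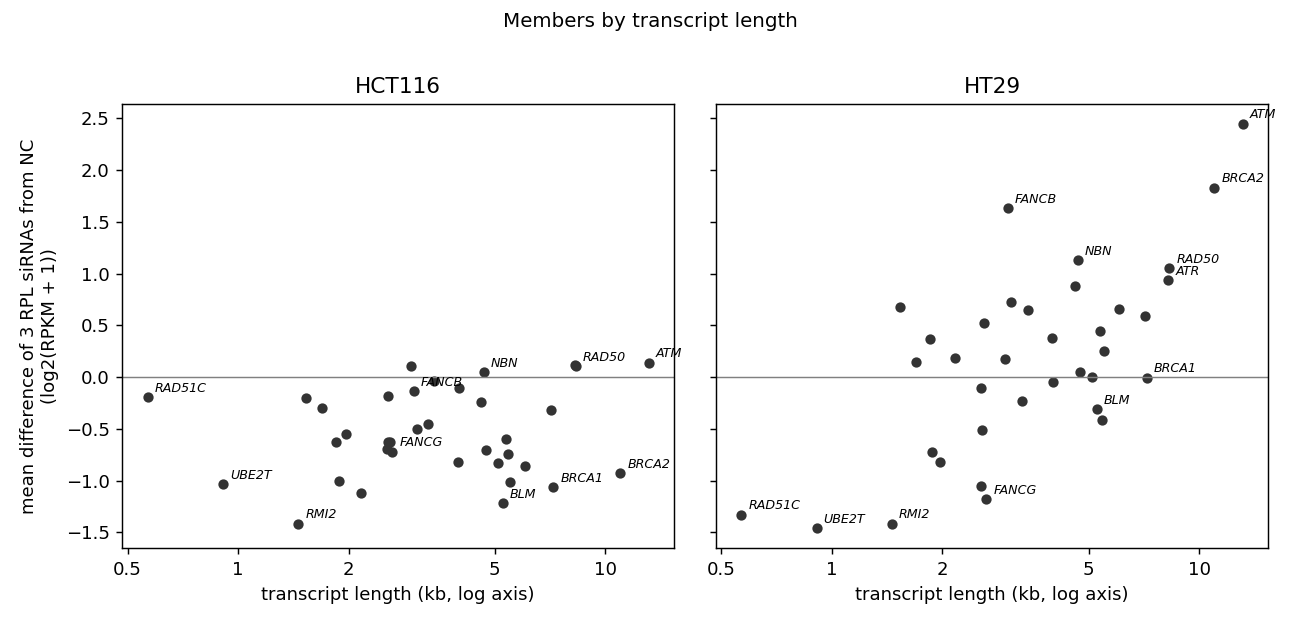
Mean difference of the 3 RPL siRNA libraries from NC (log2(RPKM + 1), vertical) against transcript length (log axis, kb) for the 36 members in HCT116 (left) and HT29 (right), 1 point per gene. In HT29 the points climb from UBE2T and RMI2 to ATM and BRCA2 (rank correlation 0.56), and in HCT116 they do not (0.11).

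With each library's trend on transcript length removed, the members' medians were -0.58 in HCT116 and -0.39 in HT29, beside 0.02 and -0.05 for all genes with a length, and 15 of the 36 were lower than NC in all 6 libraries (16.7% of all genes). On those values 9 members fell against NC, where 6.09% of all genes were called and 3.31% were called lower: BRCA1, RAD54B, BLM, FANCA, FANCG, UBE2T, FANCD2, FANCI and CHEK2. The differences were -1.17 (adjusted p = 0.0173) for BLM, -1.09 (adjusted p = 0.0336) for BRCA1, -0.996 (adjusted p = 0.0186) for UBE2T and -1.01 (adjusted p = 0.0324) for FANCG. No member was called higher. The fitted differences of BRCA2, RAD50 and ATR, above 0 as deposited with none passing, came to -0.25 (adjusted p = 0.642), -0.04 (adjusted p = 0.883) and -0.08 (adjusted p = 0.742), and ATM to 0.55 (adjusted p = 0.126). Without the HT29 NC library the test calls 18 members lower and none higher (12.9% of all genes called), and without the HCT116 NC library 9 lower and 12 higher (48.6%). Each of those fits takes NC from 1 library of 1 line and its spread from the RPL siRNA libraries. UBE2T, FANCG, RAD54B, FANCA and CHEK2 were among the members lower in both, with UBE2T at -1.04 and -1.46.

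Each siRNA was then taken against NC on its own. These 3 comparisons share both NC libraries. No member passed for RPL9 siRNA (0.007% of all genes called), RPL17 siRNA (0.014%) or RPL27 siRNA (0%). At an unadjusted p under 0.05, 9 members were lower and none higher with RPL9 siRNA (8.77% and 11.6% of all genes), 5 lower and 3 higher with RPL17 siRNA (6.46% and 9.27%), and 11 lower and none higher with RPL27 siRNA (7.03% and 9.71%). The medians over the members were -0.23, 0.02 and -0.44, beside 0.10, 0.10 and 0.12 over all genes. UBE2T was at -1.23 (SE 0.21, adjusted p = 0.105), -0.99 (SE 0.21, adjusted p = 0.218) and -1.52 (SE 0.21, adjusted p = 0.111) in turn. RMI2 was at -1.51 (SE 0.36, adjusted p = 0.139), -1.10 (SE 0.36, adjusted p = 0.275) and -1.63 (SE 0.36, adjusted p = 0.166). For FANCA the values were -0.54 (SE 0.18, adjusted p = 0.206), -0.37 (SE 0.18, adjusted p = 0.358) and -0.83 (SE 0.18, adjusted p = 0.166). The siRNA against RPL17 stood nearest to NC for each of these genes. Without the HT29 NC library the counts of members called lower became 15, 4 and 19, with none higher (15.2%, 6.85% and 10% of all genes called). Without the HCT116 NC library they were 8 lower and 9 higher, 4 lower and 13 higher, and 10 lower and 6 higher (46.2%, 44.2% and 44.6%).

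The comparison of the RPL siRNAs with each other leaves the NC libraries out (limma on the 6 RPL siRNA libraries with line as a term). Values under RPL17 siRNA were above those under RPL27 siRNA: 35 of 36 members were higher by some amount (50.7% of all genes), and the median was 0.38, beside 0.004 over all genes. At an unadjusted p under 0.05, 22 members were higher and none lower (9.19% and 8.2% of all genes). None passed in limma after adjustment, where the share of all genes called was 0.938%. The largest differences of one sign in both lines were BRIP1 at 0.77 (SE 0.13, adjusted p = 0.0621), FANCB at 0.69 (SE 0.38, adjusted p = 0.422), CLSPN at 0.68 (SE 0.11, adjusted p = 0.0566) and FANCI at 0.62 (SE 0.10, adjusted p = 0.0566). BRIP1 was at 208 against 119.2 RPKM in HCT116 and at 159 against 94.7 RPKM in HT29, and CLSPN at 539.8 against 326 RPKM and at 363 against 232 RPKM. The interval of FANCB, a low gene, spans 0. FANCF was the exception, with RPL17 siRNA lower in HCT116 and higher in HT29. With a minimum mean of 5 RPKM (12387 genes tested), BRIP1, RAD50, FANCA, FANCI and CLSPN pass (3% of all genes called), and after quantile normalization BRIP1, FANCI and CLSPN do (1.9%). Without the HCT116 or the HT29 library of RPL9 siRNA, FANCI and CLSPN pass (1.53% and 1.86%).

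**Figure D4:**
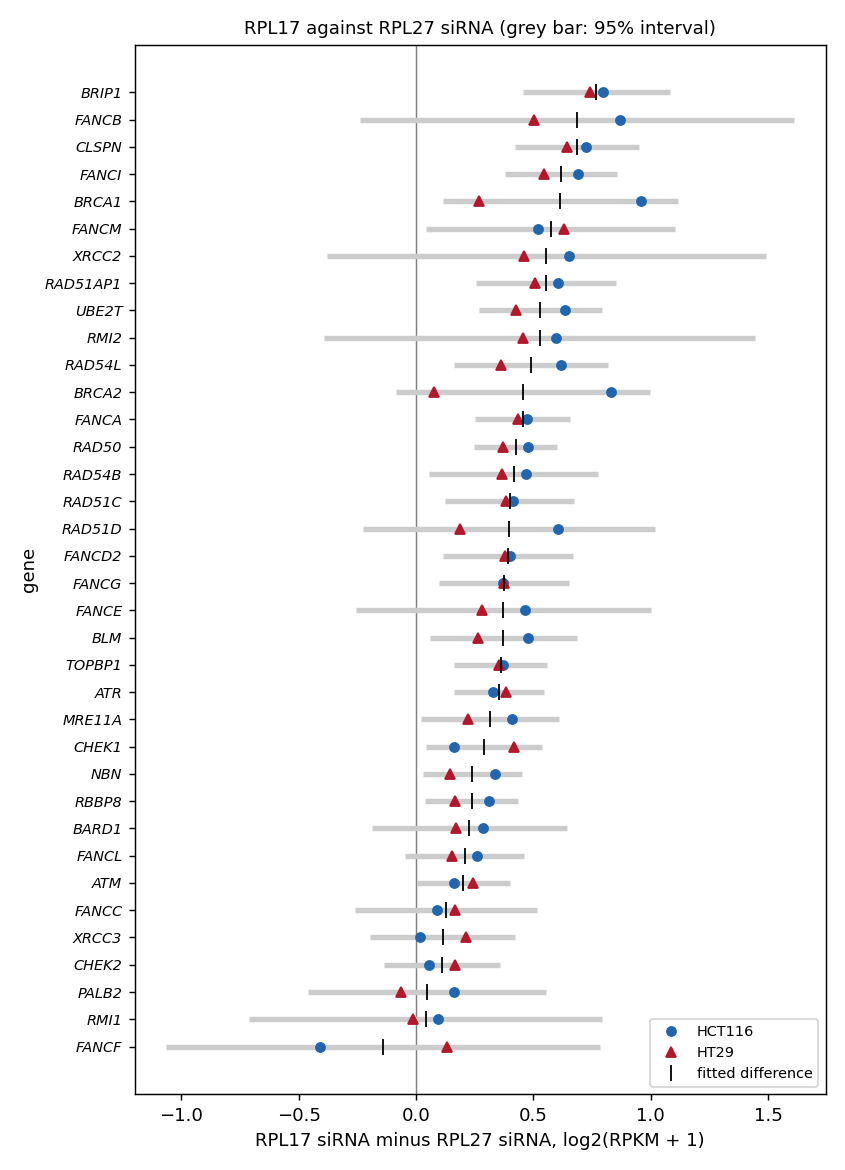
RPL17 siRNA minus RPL27 siRNA on the log2(RPKM + 1) scale for each of the 36 members, sorted by the fitted difference (black tick) with its 95% interval (grey bar); circles are HCT116 and triangles HT29. The points of both lines lie right of 0 for all members but PALB2, RMI1 and FANCF, from CHEK2 at 0.11 up to BRIP1 at 0.77.

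RPL17 siRNA gave the highest of the 3 RPL siRNA values in both lines for 24 of the 36 members (16.6% of all genes), and RPL27 siRNA the lowest in both lines for 19 (17.4%). By role, the medians of RPL17 minus RPL27 siRNA were 0.46 for the BRCA complex, 0.42 for the genes of strand invasion, 0.37 for the BLM dissolvasome, 0.28 for break end resection, 0.37 for the core complex with UBE2T, 0.50 for FANCD2 and FANCI, and 0.32 for the checkpoint genes. 

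RPL9 siRNA gave lower values than RPL17 siRNA for 29 of 36 members (51.3% of all genes), with a median of -0.20. At an unadjusted p under 0.05, 10 were lower and none higher (9.78% and 9.79% of all genes), and none passed in limma after adjustment (0.329%). XRCC2, which acts in filament assembly, stood at 32.8 RPKM with NC siRNA and at 13.1, 37.9 and 23.8 RPKM with the RPL siRNAs in HCT116, and at 18.3 RPKM against 33.6, 35.2 and 25.3 RPKM in HT29. This low gene had the largest difference, -0.76 (SE 0.38, adjusted p = 0.337), followed by ATM at -0.57 (SE 0.08, adjusted p = 0.0561), FANCG at -0.56 (SE 0.11, adjusted p = 0.0912) and RAD51AP1 at -0.52 (SE 0.12, adjusted p = 0.117). ATM passes with a pseudocount of 5 (0.868% of all genes called), with a minimum mean of 5 RPKM (2.07% of those genes called) or after quantile normalization (1.35%). RPL9 siRNA gave higher values than RPL27 siRNA for 30 of 36 members (50.7% of all genes), with a median of 0.16. At an unadjusted p under 0.05, 9 were higher and 1 lower (10.5% and 9.56% of all genes), and none passed in limma after adjustment (1.38%). The largest differences of one sign in both lines were BRCA2 at 0.62 (SE 0.22, adjusted p = 0.204), FANCM at 0.46 (SE 0.22, adjusted p = 0.304), RAD54L at 0.41 (SE 0.13, adjusted p = 0.175) and RAD50 at 0.40 (SE 0.07, adjusted p = 0.0696). FANCM stood at 124 RPKM with NC siRNA and at 92.9, 124 and 86.2 RPKM with the RPL siRNAs in HCT116, and at 50.4 RPKM against 96.6, 84.4 and 54.2 RPKM in HT29. RAD54L stood at 319 RPKM with NC siRNA and at 201, 241 and 157 RPKM with the RPL siRNAs in HCT116, and at 232 RPKM against 246, 229 and 177 RPKM in HT29. RAD50 was the nearest to the threshold and passes with a minimum mean of 5 RPKM (3.34%). ATM was the 1 member lower at an unadjusted p under 0.05, at -0.37 (SE 0.08, adjusted p = 0.0935), and it was lowest with RPL9 siRNA in both lines. These 3 comparisons share libraries pairwise and are not separate evidence.

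The lines themselves were compared under the RPL siRNAs only, with the 3 siRNAs as replicates. Of the 36 members 9 passed (25%), close to the 22.9% of all genes called, so the count is not particular to these genes. Higher in HCT116 were RAD51C by 0.77 (SE 0.09, adjusted p = 0.00401), FANCD2 by 0.56 (SE 0.09, adjusted p = 0.0106), CLSPN by 0.46 (SE 0.09, adjusted p = 0.0174) and RBBP8 by 0.33 (SE 0.07, adjusted p = 0.0203). Lower in HCT116 were BRCA2 at -0.94 (SE 0.18, adjusted p = 0.017), FANCL at -0.86 (SE 0.08, adjusted p = 0.00222), MRE11A at -0.77 (SE 0.10, adjusted p = 0.00493), FANCI at -0.33 (SE 0.08, adjusted p = 0.0332) and CHEK1 at -0.31 (SE 0.08, adjusted p = 0.0436). FANCL, the ligase of the core complex, stood at 464 RPKM with NC siRNA and at 383, 409 and 342 RPKM with the RPL siRNAs in HCT116, and at 618 RPKM against 619, 759.9 and 682 RPKM in HT29. The HCT116 and HT29 values of FANCL under the RPL siRNAs did not overlap. FANCD2 was higher in HCT116 and FANCI, its partner, lower, but the call of FANCI was lost under 12 of 17 alternative settings and that of FANCD2 under 5. Each of the 9 had one sign under all 3 siRNAs. The split of 4 higher and 5 lower (11.1% and 11.7% of all genes) moved with the scaling, to 6 and 3 after median-centring, where no share of all genes is given here. It was 8 and 3 with the length trend removed (16.9% and 10.1% of all genes). With the length and GC trends removed it was 9 and 3 (18.2% and 10.5%). FANCI and CHEK1 did not pass under any of those 3, BRIP1 and FANCA passed under each, and the other 7 kept their calls. RMI2, a low gene, had a difference of -0.81 (SE 0.31, adjusted p = 0.111) that did not pass. Without the RPL17 siRNA library of either line RAD51C, MRE11A and FANCL still pass and the other 6 do not, where 8.33% (HCT116) and 8.76% (HT29) of all genes pass. Without the HCT116 library of RPL27 siRNA 4 pass (11.6% of all genes), without the HT29 one 4 pass (12%), and with the NC libraries in the fit none does (3.61%).

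**Figure D5:**
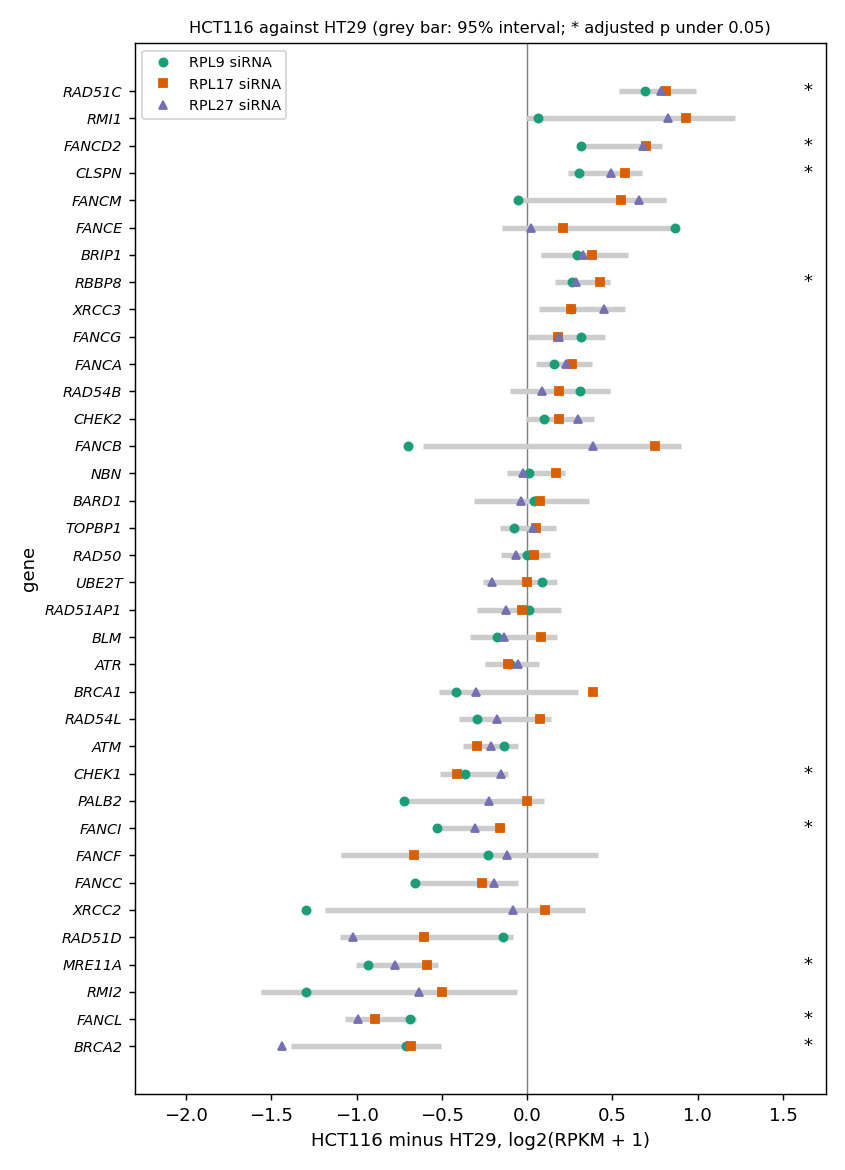
HCT116 minus HT29 on the log2(RPKM + 1) scale for each of the 36 members under RPL9 (circles), RPL17 (squares) and RPL27 siRNA (triangles), with the 95% interval of the fitted difference (grey bars) and stars on the 9 members with an adjusted p under 0.05. RAD51C is highest in HCT116 at 0.77 and BRCA2 lowest at -0.94, and BRCA1 and FANCB scatter across 0.

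The difference between the lines in the RPL siRNA effect was tested too (line by any RPL siRNA, 8 libraries). Each line has 1 NC library, so the spread in this test comes from the RPL siRNA libraries alone, and what is particular to one NC library cannot be told apart from an effect of the siRNAs. The test called 9 of 36 members (25%), close to the 22.9% of all genes called, so the count is not particular to these genes. RAD51C was lower against NC in HT29 than in HCT116, and BRCA2, BARD1, MRE11A, NBN, FANCC, ATM, CHEK1 and TOPBP1 were higher against NC in HT29 than in HCT116 (8 of 36, where 16.8% of all genes were called in that direction). The largest were BRCA2 at -2.76 (SE 0.52, adjusted p = 0.00835) and ATM at -2.31 (SE 0.38, adjusted p = 0.00495), HCT116 minus HT29. With the length trend removed 1 member passed, CHEK1 at -1.13 (adjusted p = 0.0417), where 7.55% of all genes passed, and with the trends on length and GC content removed none did (7.33%). The median over the members was -0.86 as deposited, -0.24 with the length trend removed and 0.02 with both removed. The count also turned on single libraries: it was 4 without the HCT116 library of RPL9 siRNA (19.1% of all genes), 15 without that of RPL17 siRNA (20.9%), 5 without that of RPL27 siRNA (20%) and 5 without the HT29 library of RPL17 siRNA (17.6%).

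A wider list of 75 other genes of recombination, crosslink repair and the checkpoint gave the setting. None passed in limma for the 3 RPL siRNAs together against NC, their median was -0.06, and 18 were lower and 8 higher than NC in all 6 libraries (13% and 18% of all genes). At an unadjusted p under 0.05, 18 were lower and 8 higher (9.7% and 14.9% of all genes). Without the HT29 NC library, a setting chosen after seeing the data, 17 were called lower and 5 higher (5.96% and 6.91%). CDC25C, the phosphatase that lets cells enter mitosis, stood at 355 RPKM with NC siRNA and at 87.5, 148 and 113 RPKM with the RPL siRNAs in HCT116, and at 315 RPKM against 85.2, 154 and 123 RPKM in HT29. It had a difference of -1.52 (SE 0.17, adjusted p = 0.0577), with NC far above the rest in both lines. MND1, a protein of meiotic recombination, stood at 499 RPKM with NC siRNA and at 242, 288 and 155 RPKM with the RPL siRNAs in HCT116, and at 559.6 RPKM against 143, 207 and 151 RPKM in HT29. DMC1, a meiotic recombinase, stood at 33.2 RPKM with NC siRNA and at 6.15, 4.23 and 1.01 RPKM with the RPL siRNAs in HCT116, and at 21.8 RPKM against 3.28, 4.55 and 6.96 RPKM in HT29. Their differences were -1.46 (SE 0.23, adjusted p = 0.0686) and -2.50 (SE 0.58, adjusted p = 0.1), and DMC1 was the largest of the list and a low gene. RPA3, the small subunit of the single-strand binding protein RPA, stood at 458 RPKM with NC siRNA and at 201, 269.9 and 276 RPKM with the RPL siRNAs in HCT116, and at 898 RPKM against 236, 306 and 212 RPKM in HT29. MAD2L2, also known as REV7, stood at 717 RPKM with NC siRNA and at 421, 417 and 493 RPKM with the RPL siRNAs in HCT116, and at 1058 RPKM against 347, 290.1 and 359 RPKM in HT29. The last pair differed from NC by -1.37 (SE 0.27, adjusted p = 0.0867) and -1.19 (SE 0.25, adjusted p = 0.0906), more so in HT29.

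On the other side, EME2, a partner of the nuclease MUS81, led the genes above NC in all 6 libraries. EME2 stood at 23.6 RPKM with NC siRNA and at 45.8, 44.6 and 60.3 RPKM with the RPL siRNAs in HCT116, and at 32.7 RPKM against 69.8, 62.9 and 80.8 RPKM in HT29. Its difference was 1.07 (SE 0.20, adjusted p = 0.0799). BRCC3, the deubiquitinase of the BRCA1-A complex, stood at 266 RPKM with NC siRNA and at 373, 311 and 374 RPKM with the RPL siRNAs in HCT116, and at 167 RPKM against 515, 351 and 402 RPKM in HT29. FAM175A, the Abraxas scaffold of that complex, stood at 111 RPKM with NC siRNA and at 141, 207 and 171 RPKM with the RPL siRNAs in HCT116, and at 98.9 RPKM against 154, 149.8 and 141 RPKM in HT29. Both subunits were above NC throughout, by 0.86 (SE 0.25, adjusted p = 0.132) and 0.60 (SE 0.19, adjusted p = 0.152). INTS3, a subunit of the SOSS complex, stood at 687 RPKM with NC siRNA and at 939.8, 996 and 1051 RPKM with the RPL siRNAs in HCT116, and at 584 RPKM against 855, 991 and 946 RPKM in HT29. RAD52, a strand-annealing protein, stood at 99.9 RPKM with NC siRNA and at 123, 150.0 and 157 RPKM with the RPL siRNAs in HCT116, and at 61.0 RPKM against 81.0, 108 and 104 RPKM in HT29. The differences were 0.60 (SE 0.13, adjusted p = 0.0973) and 0.58 (SE 0.18, adjusted p = 0.139).

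Lists of DNA replication and mitosis genes were set beside the members. In the 25 genes of the MCM helicase and replisome the median difference from NC was -0.67, and 18 were lower in all 6 libraries (13% of all genes). In 24 genes of G2 and mitosis it was -0.85, with 17 lower in all 6. None of either list passed in limma, while 18 of each were lower at an unadjusted p under 0.05 (9.7% of all genes). Without the HT29 NC library 18 of the replication list and 22 of the mitosis list were called lower (5.96% of all genes), and with the length trend removed 17 of each (3.31%). Across the 11 genes of nonhomologous end joining, the other main route of break repair, the median was -0.02, with 2 lower and 2 higher in all 6. In HCT116 the members' medians of -0.60, -0.36 and -0.69 stood beside -0.80, -0.48 and -0.97 for the replication list and -1.06, -0.63 and -1.33 for the G2 and mitosis list, with RPL17 siRNA nearest to NC each time. In HT29 the members' 0.19, 0.31 and 0.07 stood beside -0.60, -0.42 and -0.83 and beside -0.55, -0.39 and -0.90. With the length trend removed the HT29 medians of the members turned to -0.25, -0.25 and -0.67, beside -0.86, -0.60 and -1.05 for the replication list and -0.76, -0.59 and -1.11 for the mitosis list, so the distance between them in that line depends on this step. Under RPL17 against RPL27 siRNA the replication list had a median of 0.46, with 3 genes called (MCM7, CDC6 and MCM3), and the G2 and mitosis list 0.59, with 4 called. The part of cell cycle state in the members' levels was not tested.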

How the data were processed

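Total RNA of 8 human cell line libraries was sequenced after Illumina TruSeq preparation, per the labels' protocols. Each library's file lists an RPKM for 19124 genes, which the authors made with CASAVA 1.8.2 and TopHat2 2.0.9 on hg19, per the submitters' processing notes. Their counting rule is not stated, so values were compared between libraries and not between genes. Read totals are not given either; the smallest values of 1186 single-exon genes put the depth roughly at 20600000 to 26700000 reads, and no counting interval was made.

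Values were taken as log2(RPKM + 1). The 14281 genes whose mean was 1 RPKM or more, all 36 members among them, were fitted with limma 3.58.1 (R 4.3.3, trended variances), with Benjamini-Hochberg adjustment over all of them and two-sided p-values, a threshold of 0.05, and residual degrees of freedom of 3 (8 libraries, line and siRNA) or 2 (the 6 RPL siRNA libraries). With 1 library per line and siRNA, the p-values of these fits measure how far the differences between siRNAs disagree between the lines. In the test of the difference between lines they measure the spread between the RPL siRNAs within a line. The scripts were first tested on simulated data. Transcript lengths and GC content were matched from GENCODE 29 (18346 genes by RefSeq ID, 554 by symbol); trend removal fitted each library's deviation from the gene means with a spline of 5 degrees of freedom on log2 length. Alternatives were other pseudocounts, filters, scalings, variance models, designs and each library left out.

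The members and lists were chosen with earlier results of these data known. Full values are given for members past the threshold, for up to 12 with the largest difference from NC of one sign in all 6 RPL siRNA libraries, for up to 4 in each comparison of siRNAs or lines, and for up to 5 each way of the wider list; others named were chosen after their values were seen.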

Additional observations from a re-analysis of the deposited data

Results flagged for a closer look

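The difference of the RPL siRNA libraries from NC was called unlike in HCT116 and HT29 for 9 members (25%), by limma (adjusted p under 0.05). The share of all genes called was 22.9%, so the count is not particular to these members. Each line has 1 NC library, so what is particular to that library cannot be told apart from an effect of the siRNAs. On the log2(RPKM + 1) scale, HCT116 minus HT29, the difference was -2.76 for BRCA2, -2.31 for ATM, -1.27 for BARD1, -1.15 for MRE11A, -1.12 for FANCC, -1.08 for NBN, -1.04 for TOPBP1, -0.99 for CHEK1 and 1.14 for RAD51C. The HT29 NC library, in which long transcripts were low, enters each of these values. With every library's trend on transcript length removed they were -1.31 for BRCA2, -0.80 for ATM, -0.32 for BARD1, -0.997 for MRE11A, -0.38 for FANCC, -0.32 for NBN, -0.11 for TOPBP1, -1.13 for CHEK1 and 0.48 for RAD51C, and CHEK1 alone passed (adjusted p = 0.0417, where 7.55% of all genes passed).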

How the results depend on the processing

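The labels give no replicate numbers. The line, in which the siRNAs are matched, is the block of the main fits, and without it no member was called against NC or between siRNAs. For the 3 RPL siRNAs together against NC the count of members called was 0 as reported, 1 after quantile normalization, 9 with the length trend removed, 13 with the length and GC trends removed (8.34% of all genes, 4.4% lower) and 3 with any RPL siRNA as one term (4.85%); leaving out each library in turn gave 0 to 21 and medians of -0.61 to 0.18. After quantile normalization 0.581% of all genes were called. The highest count with a library left out came without the HCT116 NC library, where 48.6% of all genes were called. ATR turned to -0.083 with the length trend removed and -0.13 with both trends removed. RAD50 turned to -0.036 and -0.071, and BRCA2 to -0.25 and -0.32. Without the HT29 NC library BRCA2 turned to -0.93 (range -0.93 to 1.83 over libraries left out). The counts were 3 and 8 for RPL9 siRNA (3.33% and 5.76% of all genes) and 6 and 10 for RPL27 siRNA (1.73% and 2.91%) with the length trend and both trends removed. With each library left out they ran from 0 to 17 for RPL9 siRNA (medians -0.62 to 0.13), 0 to 17 for RPL17 siRNA (-0.38 to 0.37) and 0 to 19 for RPL27 siRNA (-0.71 to 0.06). The highest counts for RPL9 and RPL17 siRNA came without the HCT116 NC library (46.2% and 44.2% of all genes called). For RPL27 siRNA the highest came without the HT29 NC library (10%).

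For RPL9 against RPL17 siRNA the count was 1 with a pseudocount of 5 (0.868% of all genes), with a minimum mean of 5 RPKM (2.07%) or after quantile normalization (1.35%). For RPL9 against RPL27 siRNA it was 1 with that minimum (3.34%) or with both trends removed (2.1%), and the medians were 0.10 to 0.29 with each library left out. For RPL17 against RPL27 siRNA it was 5 with that minimum (3% of all genes) and 3 after quantile normalization (1.9%). With both trends removed it was 1 (1.38%). With each library left out it was 0 to 2 (medians 0.29 to 0.42). It was 2 without the HCT116 or the HT29 library of RPL9 siRNA (1.53% and 1.86% of all genes). For HCT116 against HT29 the count was 3 in limma without trended variances. No share of all genes is given here for that setting, so the count is not read as particular to these members. It was 0 in the fit of all 8 libraries (median 0.19). With each library left out it was 3 to 7, where 1190 to 2305 of all genes were called (medians -0.06 to 0.01).

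For the difference between lines the count was 5 without the filter or without trended variances, 4 after quantile normalization and 3 after median-centring. No share of all genes is given here for those settings, so these counts are not read as particular to the members. It was 1 with the length trend removed (7.55% of all genes) and 0 with both trends removed (7.33%). With each RPL siRNA library left out it was 4 to 15, where 2509 to 3157 of all genes were called (medians -0.97 to -0.75). The median was -0.55, -0.41, -0.24 and 0.023 under quantile normalization, median-centring and removal of the length trend and of both trends, and TOPBP1 turned to 0.031 under the last. In the same order, settings chosen after seeing the data for values within a line, the HT29 medians were -0.00797, -0.22, -0.25 and -0.37 for RPL9 siRNA, 0.14, -0.12, -0.25 and -0.27 for RPL17 siRNA, and -0.29, -0.36, -0.67 and -0.69 for RPL27 siRNA. The test of the difference cannot be fitted without an NC library. The cause of these shifts was not tested.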
